A study of Mus musculus with 60 samples.

Results

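Gene expression was compared between cancer-associated fibroblasts (CAFs) that shared a Boyden chamber with either of 2 mouse lung cancer cell lines, 344SQ or 393P. A Boyden chamber keeps its cell populations on opposite faces of a porous membrane, so the CAFs of both groups met their cancer cells only through the medium they shared. All libraries labelled as a Boyden co-culture with 344SQ or with 393P were taken, which gave 30 of the 60 libraries of the series. Each of 5 biological replicates per group is labelled as 3 technical replicate libraries, and these were summed, so that 5 sums stood against 5. All genes were compared: 14040 of the 48440 listed genes had enough reads to be tested.

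The fibroblasts are labelled tCAFs in all groups, mouse cells from which total RNA was taken after enrichment on a cell sorter. The 344SQ group was tCAFs cultured across the membrane from 344SQ cells, the 393P group was tCAFs cultured across the membrane from 393P cells, and the reference group was tCAFs cultured alone in the same kind of chamber, again 5 replicates of 3 technical libraries. A further table of the series holds tCAFs in multicellular aggregates with the same lines or without them, 3 libraries each, where the cells were in direct contact. Both lines come from lung adenocarcinomas of mice. 344SQ is known as a metastatic line and 393P as a poorly metastatic one. Each is a single line, and culture time, cell ratio and the tissue the tCAFs came from were not stated in the labels. Nothing in the labels says that the biological replicates came from separate isolates, so the p-values measure the spread between these replicates.

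Fibroblasts sense cancer cells at a distance through secreted proteins and metabolites. Cytokines of the interleukin-1 and tumour necrosis factor families act through receptors that free the transcription factor NF-kB from its inhibitor Nfkbia, and NF-kB then drives chemokines, acute-phase proteins and its own inhibitors. In lung and pancreatic tumours, fibroblasts with high levels of such inflammatory genes are known as inflammatory CAFs, and those with high levels of contractile genes as myofibroblastic CAFs, a state linked to TGF-beta.

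The 344SQ sums held 4182944 to 5857925 reads assigned to genes, the 393P sums 6227570 to 7126107 and the sums of CAFs alone 6734110 to 8542262, so the 344SQ group was the shallowest. The third technical library gave 39.6% to 55.4% of each 344SQ sum and 26.0% to 47.9% of each 393P sum. Fibroblast markers were abundant in every sum, with a summed level of 7033 to 7663 CPM (counts scaled to a common library size) with 344SQ and 7679 to 8005 CPM with 393P. Col1a2, Col1a1, Col3a1 and Vim were among them, while Lum, another marker, had 0 to 3 reads in any co-culture sum. Carcinoma markers summed to 30.2 to 53.1 CPM with 344SQ, to 19.2 to 92.1 CPM with 393P and to 26.3 to 40.3 CPM in CAFs alone, with Epcam at 0 to 2 reads and Cldn3 at 0 in every sum. Of 24 such markers listed 6 passed the filter on low counts and 0 were called between the lines: Cdh1 had mean levels of 8.59 CPM with 344SQ, 6.22 with 393P and 2.82 in CAFs alone, Krt18 had 4.48, 4.52 and 2.31, and Krt7 had 8.83, 10.5 and 7.73, with up to 191 reads in a 393P sum. The value of 92.1 CPM was that of 393P replicate 1. Leukocyte markers summed to 17.8 to 28.1 CPM over the 15 sums, and Adgre1, Cd3e, C1qa and Tyrobp were at 0. Cd68 (mean 11.3 CPM with 344SQ and 10.3 with 393P), Cd14 (5.51 and 3.76), Csf1r (4.59 and 4.41) and Lyz2 (1.76 and 1.83) were the 4 of 23 listed leukocyte markers that passed the filter, and 0 of the 4 were called between the lines. Endothelial markers summed to 77.9 to 83.4 CPM with 344SQ and 60.1 to 67.0 CPM with 393P, most of it from Flt1, which was higher with 344SQ by 0.39 on the log2 scale (adjusted p = 0.00110). Kdr had mean levels of 7.76 and 8.41 CPM and was not called, and Cdh5 had 0 or 1 read. In such bulk libraries, fewer cells of a type and less RNA per cell cannot be told apart. The part of depth, technical library share and these markers in the results was not tested beyond the values given without single libraries.

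The largest differences between the lines were in inflammatory transcripts. With 344SQ across the membrane, CAFs had higher levels of acute-phase genes (Saa3, Lcn2), neutrophil-attracting chemokines (Cxcl1, Cxcl2, Cxcl5), monocyte chemokines (Ccl2, Ccl7), NF-kB inhibitors (Nfkbia, Tnfaip3) and matrix proteases (Mmp3, Mmp13) than CAFs with 393P across the membrane. Of 27 tested hypoxia and glycolysis genes 15 were also higher, by smaller amounts. The falls were fewer and smaller, led by Abca8a, Mgp and Nov. In edgeR's quasi-likelihood test with Benjamini-Hochberg adjustment, 545 genes (3.88%) differed at an adjusted p under 0.05, 354 higher (2.52%) and 191 lower (1.36%) with 344SQ. Among them, 70 were higher and 8 lower by a log2 difference of at least 1, and 19 were higher and 0 lower by at least 2. Many differences were small: 300 of the 545 differed by less than 0.5 on the log2 scale, at a biological coefficient of variation of 8.58%. The median log2 difference over all genes tested was 0.0038. The number of falls depended on single replicates, with 367 without 344SQ replicate 4, 127 without 393P replicate 4 and 113 without 393P replicate 5. Of the genes called, 400 had no overlap of replicate values between 344SQ and 393P, against 626 of all genes tested (4.46%). In 39 of them, 34 higher and 5 lower, even the 15 technical libraries of one group did not overlap the 15 of the other.

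**Figure D1:**
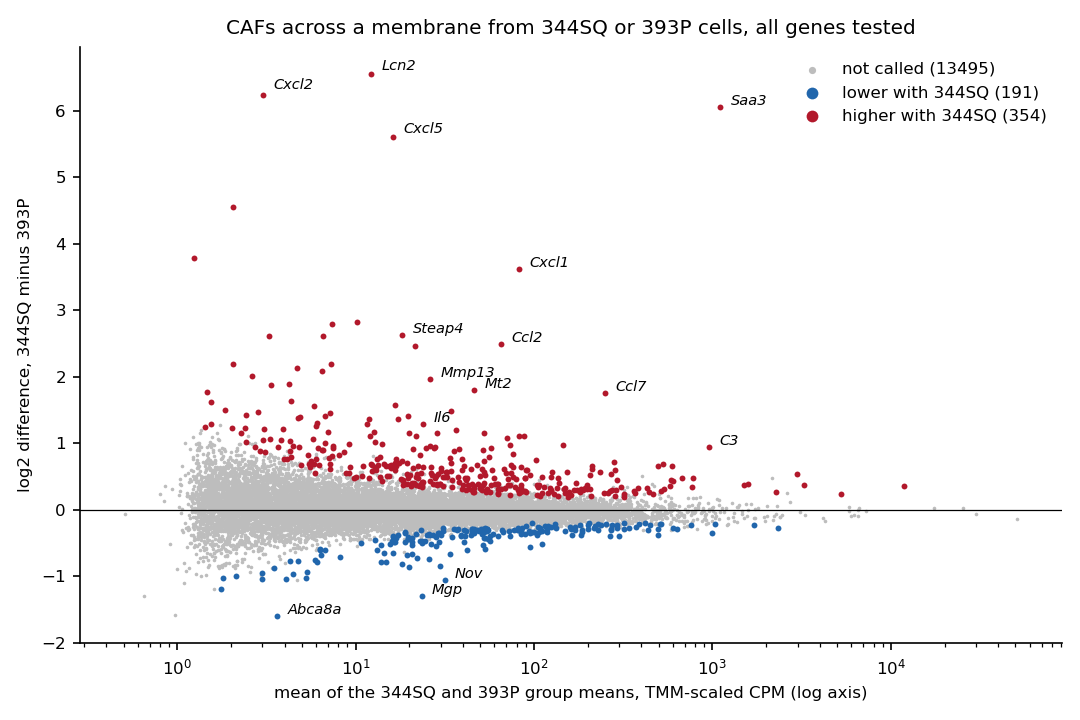
Log2 difference between CAFs with 344SQ and CAFs with 393P across the membrane (vertical axis) against the mean of the group means in CPM (horizontal axis, log scale), 1 point per gene tested. Coloured points are the 354 genes called higher and the 191 called lower; the points above 2 are all higher with 344SQ.

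The acute-phase gene Lcn2 had the largest difference of all genes called, followed by Cxcl2 and by the acute-phase gene Saa3. Acute-phase proteins are made early in inflammation, and of 16 listed genes 8 had enough reads to be tested. Of these, 7 were higher, where 2.52% of all genes were, and 0 lower, with a median log2 difference of 1.91. The list was chosen with earlier results of these data known, and Lcn2 passed the filter on low counts only through its reads with 344SQ. The count is therefore a description only. Saa3 (ENSMUSG00000040026.8, chromosome 7, 46711998 to 46715700, minus strand in GRCm38), a serum amyloid A that is made outside the liver, had 2232, 1811, 2018, 2409 and 2402 CPM in the 344SQ replicates and 34.4, 36.2, 27.2, 27.3 and 38.2 CPM in the 393P replicates. CAFs alone had 51.7, 59.4, 44.6, 43.9 and 72.8 CPM, so the 393P replicates lay below every replicate of CAFs alone and the 344SQ replicates far above both. The log2 difference between the lines was 6.05 ± 0.13 (SE; adjusted p = 3.72e-21). Saa3 has close paralogs, and reads shared with them could have been dropped or split by the counting.

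Lcn2 (ENSMUSG00000026822.14, chromosome 2, 32384633 to 32388252, minus strand), the iron-siderophore binding protein lipocalin, had 26.5, 26.1, 22.8, 22.9 and 22.7 CPM with 344SQ and 0.417, 0.159, 0.157, 0.152 and 0.289 CPM with 393P. The 393P replicates had 1 to 3 reads each, 8 in all, against 602 reads with 344SQ, and the ratio of summed CPM was 102, with an exact 95% interval of 51.3 to 237 that covers counting error only. Its fitted log2 difference was 6.55 ± 0.25 (adjusted p = 5.98e-16). Steap4, a metalloreductase that takes up iron and copper, had 38.7, 27.3, 35.9, 30.9 and 24.8 CPM with 344SQ and 5.84, 4.78, 4.72, 4.09 and 5.92 CPM with 393P, again without overlap, and a log2 difference of 2.63 ± 0.15 (adjusted p = 4.33e-12). Cp, the copper ferroxidase ceruloplasmin, was higher by 2.45, the lipopolysaccharide-binding protein Lbp by 1.36, the pentraxin Ptx3 by 0.91 and the protease inhibitor Serpina3n by 0.70 on the log2 scale. Serpina3g differed by 0.47 (adjusted p = 0.247) and did not pass. In each of the 3 technical sets taken alone, 6, 6 and 7 of the 8 genes were called higher.

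Neutrophil chemokines were higher as well. These ligands of Cxcr2 draw neutrophils, and of 7 listed genes 3 had enough reads to be tested. All 3 were higher, by a median log2 difference of 5.6. Cxcl2 and Cxcl5 passed the filter on low counts only through their reads with 344SQ. That all 3 were higher was therefore partly set by the filter and is a description only. Cxcl1 (ENSMUSG00000029380.11, chromosome 5, 90891241 to 90893115, plus strand) had 133, 122, 141, 193 and 175 CPM with 344SQ and 11.5, 13.5, 11.3, 11.2 and 14.1 CPM with 393P. The mean of CAFs alone was 11.4 ± 1.82 CPM (SD, n = 5), next to the 393P level, and the log2 difference between the lines was 3.62 ± 0.12 (adjusted p = 7.41e-17). Cxcl5 (ENSMUSG00000029371.7, chromosome 5, 90759360 to 90761624, plus strand) had 28.0, 22.7, 27.0, 41.8 and 39.5 CPM with 344SQ and 0.696, 0.637, 1.10, 0.455 and 0.289 CPM with 393P, which is 769 reads against 21 and a ratio of summed CPM of 49.5 (95% interval 32.2 to 80.5). The fitted log2 difference was 5.6 ± 0.25 (adjusted p = 1.97e-14). Cxcl2 (ENSMUSG00000058427.10, chromosome 5, 90903871 to 90905938, plus strand) had 6.10, 3.46, 6.02, 7.40 and 7.01 CPM with 344SQ. With 393P it was at 0 in replicates 1 to 4 and at 0.289 CPM, 2 reads, in replicate 5, a ratio of summed CPM of 98.0 (95% interval 26.7 to 817), and its fitted log2 difference was 6.23 ± 0.49 (adjusted p = 2.15e-09). All 3 genes lie in one cluster on chromosome 5 and are related in sequence, and the least expressed, Cxcl2, rests on 145 reads against 2.

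**Figure D2:**
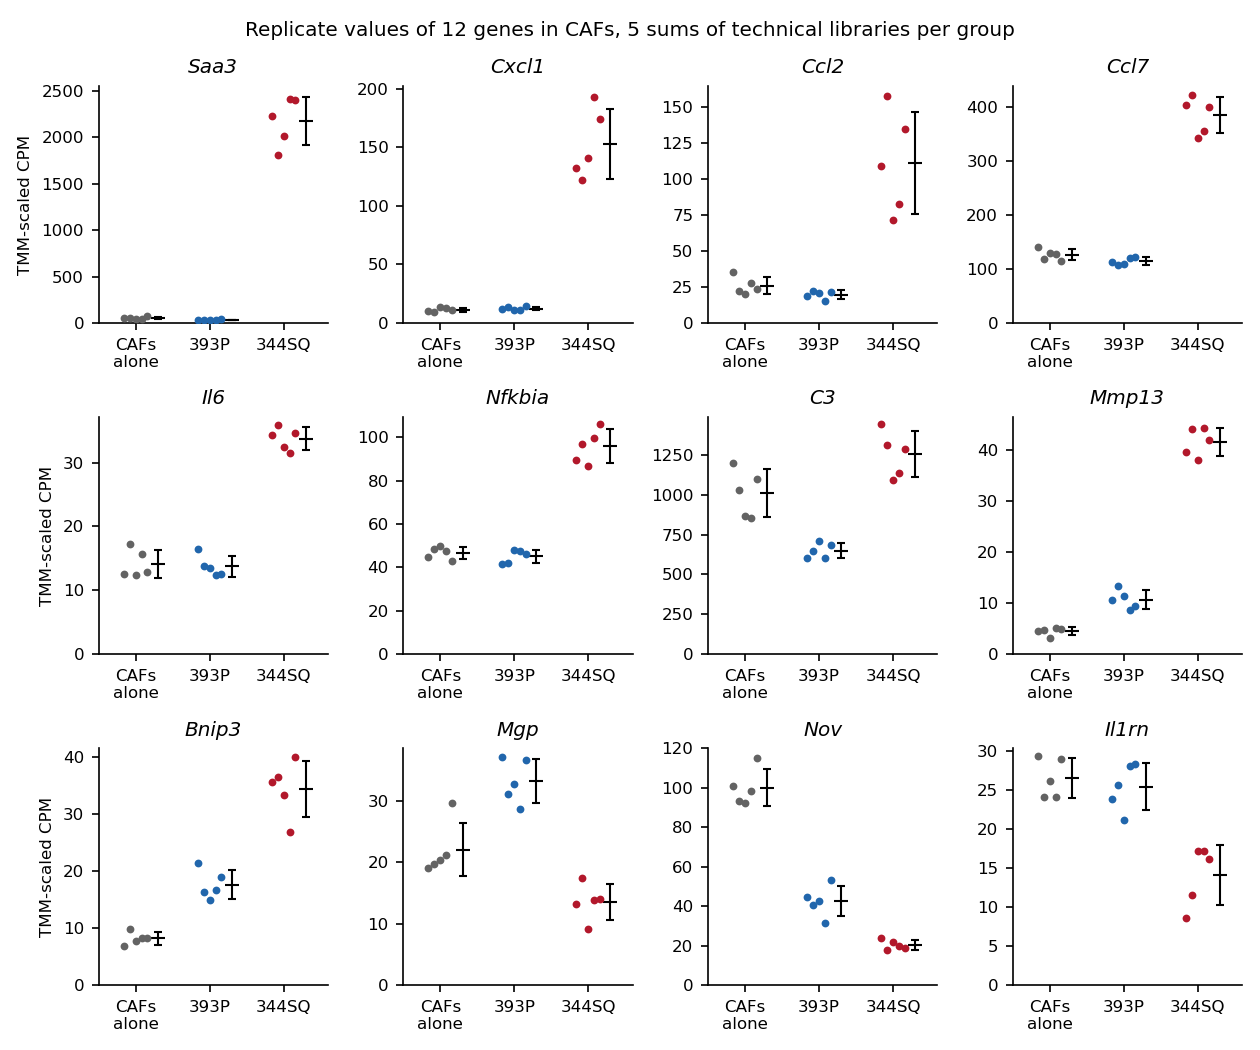
Level in CPM (vertical axes, linear from 0) of 12 genes in each of the 15 sums (points) of CAFs alone, 393P and 344SQ, with the mean as a dash and the SD as an error bar beside the 5 points of each group. For Saa3, Cxcl1 and Il6 the 5 points of the 344SQ group lie above all points of the 393P group, and for Mgp and Nov below them.

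Promoter sequences are given for the chemokines and for NF-kB's own inhibitors because these genes differed together and because a kappaB motif, the DNA site that NF-kB dimers are known to bind, was found in a set of them. The 120 bases before the start site are shown 5′ to 3′ on the gene's strand, from RefSeq promoters of GRCm38.p6, with the kappaB match in capitals. Cxcl1 and Cxcl2 hold the same run of capitals, and Il6, Nfkbia and Tnfaip3 hold others. A further RefSeq promoter of Tnfaip3, from another start site, held no match and is not shown. Saa3 is given as a strongly differing gene with no match, which says only that these letters are not in the window. The last bases of the Cxcl1, Cxcl2 and Saa3 windows lie in the first exon in GENCODE, whose start differs from that of RefSeq. The whole Tnfaip3 window, with its match, lies inside the gene in GENCODE, where the gene starts at 19015657.
Cxcl1 (chr5:90891125-90891244, plus strand): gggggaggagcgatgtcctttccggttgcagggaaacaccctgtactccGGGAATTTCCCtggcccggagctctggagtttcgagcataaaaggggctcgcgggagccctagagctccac
Cxcl2 (chr5:90903779-90903898, plus strand): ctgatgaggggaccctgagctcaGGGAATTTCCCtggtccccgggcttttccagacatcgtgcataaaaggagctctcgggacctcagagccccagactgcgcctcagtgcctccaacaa
Il6 (chr5:30012994-30013113, plus strand): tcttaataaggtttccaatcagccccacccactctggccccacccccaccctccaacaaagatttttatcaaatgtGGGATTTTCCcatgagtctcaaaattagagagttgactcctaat
Nfkbia (chr12:55492648-55492767, minus strand): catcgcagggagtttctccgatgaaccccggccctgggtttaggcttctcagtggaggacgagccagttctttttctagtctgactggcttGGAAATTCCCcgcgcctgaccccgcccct
Tnfaip3 (chr10:19015411-19015530, minus strand): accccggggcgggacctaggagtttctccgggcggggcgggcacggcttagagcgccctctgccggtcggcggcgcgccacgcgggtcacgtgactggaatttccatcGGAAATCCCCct
Saa3 (chr7:46715677-46715796, minus strand): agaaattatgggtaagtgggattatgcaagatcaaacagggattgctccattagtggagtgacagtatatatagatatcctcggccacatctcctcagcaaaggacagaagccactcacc

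The search covered the 300 bases from 250 before to 50 after the start, on both strands, and a match is a description of letters, not a binding site. A kappaB match was present in 4.51% of 32851 promoters. Counting genes by any of their promoters, 5.98% of 9154 tested genes with an entry held one, as did 12% of 234 genes higher with 344SQ and 3.62% of 138 lower. Among 40 genes higher by a log2 difference of at least 1, the share was 25%, or 10 genes. The AP-1 motif TGANTCA, which does not overlap kappaB in its letters, was present in 7.81% of promoters, 6.3% of tested genes, 12.4% of genes higher and 5.8% of genes lower. Among the 40 genes higher by at least 1, its share was also 25%, or 10 genes, so kappaB was not the more frequent of the 2 motifs there.

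Monocyte attractants divided. Of 17 listed genes 8 were tested, 3 higher and 1 lower, where 2.52% and 1.36% of all genes tested were. The median log2 difference was 0.53. Ccl2 (ENSMUSG00000035385.5, chromosome 11, 82035571 to 82037453, plus strand), the main ligand of Ccr2 on monocytes, had 109, 157, 71.6, 82.5 and 134 CPM with 344SQ and 19.1, 22.3, 20.8, 15 and 21.4 CPM with 393P. Its 344SQ replicates spread widely, yet the lowest was far above the highest 393P replicate, and the log2 difference was 2.50 ± 0.18 (adjusted p = 1.90e-10). Ccl7 (ENSMUSG00000035373.2, chromosome 11, 82045712 to 82047525, plus strand), its neighbour and a further Ccr2 ligand, had 403, 422, 342, 355 and 399 CPM and 113, 107, 108, 120.3 and 123 CPM, a tight difference of 1.75 ± 0.07 (adjusted p = 1.37e-15). Cxcl16, a membrane-bound chemokine and scavenger receptor, was higher by 1.49 ± 0.08 (adjusted p = 2.13e-12), although its exons overlap a gene on the other strand and the counting may not have told them apart. Cxcl12, which retains leukocytes through Cxcr4, was lower by a small amount, -0.23 (adjusted p = 0.00847).

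In the interleukin-6 family the cytokines Il6 and Lif were higher. Il6 (ENSMUSG00000025746.11, chromosome 5, 30013114 to 30019981, plus strand), whose promoter is among those shown, had 34.3, 36.0, 32.4, 31.6 and 34.6 CPM with 344SQ and 16.4, 13.9, 13.5, 12.4 and 12.6 CPM with 393P. CAFs alone had 14.1 ± 2.20 CPM (SD, n = 5), close to the 393P level, and the log2 difference between the lines was 1.29 ± 0.11 (adjusted p = 3.46e-09). Lif, a cytokine of the same family that signals to fibroblasts themselves, had 104, 86.5, 90.7, 115 and 91.2 CPM against 51.6, 57.5, 47.1, 60.8 and 54.7 CPM, a log2 difference of 0.84 ± 0.08 (adjusted p = 4.36e-08). The kinase Jak2 and the receptor subunit Osmr, which carry the signal of this family into the cell, were higher by 0.30 and 0.27. In all, 4 of 13 tested genes of this family and its receptors were higher and 0 lower, with a median of 0.04. Over all genes tested, 2.52% were higher and 1.36% lower.

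Receptors and brakes of interleukin-1 and tumour necrosis factor signalling split in direction. Of 13 tested genes, 3 were higher and 1 lower, where 2.52% and 1.36% of all genes tested were, with a median of 0.07. The receptor Tnfrsf1b (0.66, adjusted p = 3.34e-06), the interleukin-1 receptor subunit Il1rap (0.47, adjusted p = 3.66e-05, exons overlapping another gene) and the inhibitory kinase Irak3 (0.54) were higher. Il1rn (ENSMUSG00000026981.15, chromosome 2, 24336853 to 24351494, plus strand), the antagonist that blocks the interleukin-1 receptor, was lower: 8.57, 11.6, 17.2, 17.2 and 16.1 CPM with 344SQ against 23.9, 25.6, 21.3, 28.2 and 28.4 CPM with 393P. The 5 replicates of each group did not overlap, 344SQ replicate 1 was the lowest, and the log2 difference was -0.87 ± 0.14 (adjusted p = 2.25e-04). Il1rn was not called in technical library 1 or 2 alone (adjusted p 0.406 and 0.339). CAFs alone were at 26.6 ± 2.54 CPM, near the 393P level.

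The NF-kB list was made of its subunits, its feedback inhibitors and classical targets outside the chemokines. Of its 19 tested genes 11 were higher and 0 lower, where 2.52% and 1.36% of all genes tested were. The median log2 difference was 0.54 and all 19 were above 0. Nfkbia, the inhibitor that NF-kB induces against itself, had 89.3, 96.8, 86.8, 99.7 and 106 CPM with 344SQ and 41.7, 42.1, 48.0, 47.6 and 46.2 CPM with 393P. Tnfaip3, the ubiquitin-editing brake A20, had 109.7, 91.5, 92.8, 99.7 and 89.5 CPM and 50.6, 48.6, 46.9, 55.2 and 44.9 CPM. In both genes every 344SQ replicate was well above every 393P replicate, with log2 differences of 1.08 ± 0.07 (adjusted p = 4.94e-11) and 0.97 ± 0.08 (adjusted p = 9.41e-09). Their promoters are among those shown. Of the 7 higher genes of this list with a promoter entry, 5 held a kappaB match, against 5.98% of tested genes with an entry. The list was made of known NF-kB genes, so this share was partly set by that choice and is a description only.

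Other NF-kB genes differed less or from lower levels. The RNase Zc3h12a, which degrades cytokine messages, was higher by 1.63, the transcription factor Cebpd by 1.16, the co-activator Bcl3 by 0.93, the subunits Nfkb1 and Relb by 0.61 and 0.58, and the adaptor Tnip1 by 0.52. Vcam1, an adhesion molecule for leukocytes, was higher by 0.66 ± 0.06 from a high level (728 ± 29.7 against 459.5 ± 44.4 CPM; SD, n = 5). The calls of Rel (0.32) and Cebpb (0.45) depended on single replicates. Rel lost its call without 344SQ replicate 1 or 5 or 393P replicate 3 or 5 (adjusted p 0.0546 to 0.0959). Cebpb lost it without 344SQ replicate 2, 3, 4 or 5, 393P replicate 1, 2, 3 or 4 or CAFs alone replicate 1, 3 or 4 (0.0504 to 0.164). With 1 technical set alone, 4, 5 and 8 genes of the list were called, at medians of 0.61, 0.37 and 0.61.

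**Figure D3:**
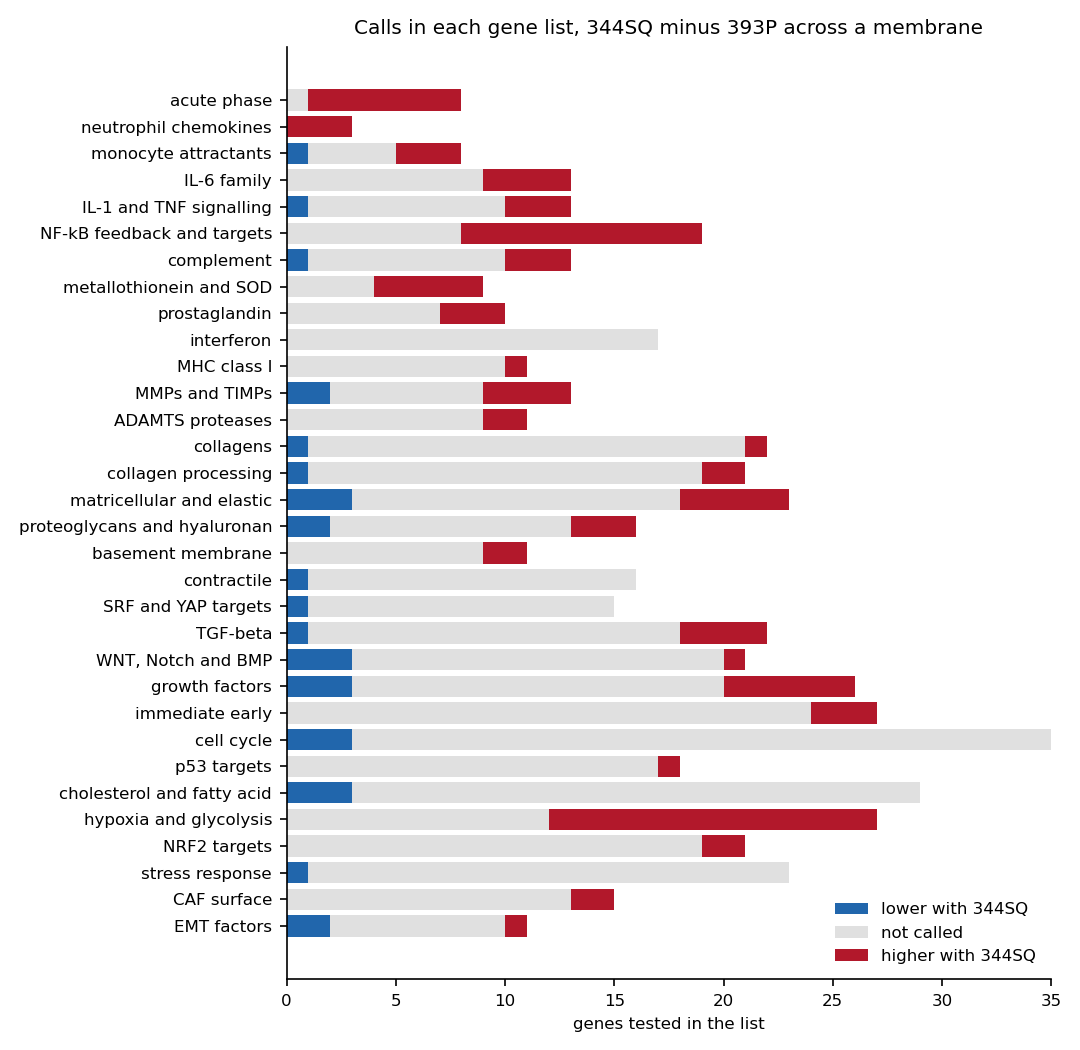
Number of tested genes (horizontal axis) in each gene list (vertical axis), stacked from left to right as called lower, not called and called higher with 344SQ. The red part takes 7 of 8 acute-phase, 3 of 3 neutrophil chemokine, 11 of 19 NF-kB and 15 of 27 hypoxia and glycolysis genes. Lcn2, Cxcl2 and Cxcl5 passed the filter on low counts only through their reads with 344SQ.

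Some metal and oxidant defence genes were higher with 344SQ. Of 9 tested metallothionein and superoxide dismutase genes 5 were higher and 0 lower, with a median of 0.55. Over all genes tested, 2.52% were higher and 1.36% lower. Mt2, a metallothionein that binds zinc and copper, had 73.3, 65.4, 65.8, 83.6 and 71.3 CPM with 344SQ and 18.9, 21.3, 18.7, 23.5 and 21.1 CPM with 393P (log2 difference 1.79 ± 0.09, adjusted p = 1.74e-13). Mt1, its paralog, was higher by 1.11, and reads that the pair shares may be split between them. The mitochondrial superoxide dismutase Sod2, a known NF-kB target, had 112, 107, 120.2, 138 and 123 CPM against 50.5, 56.5, 55.3, 61.4 and 55.3 CPM, 1.10 ± 0.07 on the log2 scale (adjusted p = 3.76e-11). The zinc importer Slc39a14 (0.55) and the extracellular Sod3 (0.68) were higher too, and Fth1, the ferritin heavy chain that stores iron, by 0.54 (adjusted p = 1.21e-05). Of 21 tested rows of the antioxidant (Nrf2) list, only Fth1 and Taldo1 (0.26) were called, and Taldo1 lost its call without 344SQ replicate 1, 2, 4 or 5 or 393P replicate 1, 2 or 3 (adjusted p 0.0549 to 0.0998).

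Complement and prostaglandin genes showed single members rather than whole lists. C3, the central complement component, had 1447, 1312, 1091, 1137 and 1289 CPM with 344SQ and 604, 649, 713, 601 and 683 CPM with 393P, a log2 difference of 0.95 ± 0.09 (adjusted p = 3.80e-08). The mean of CAFs alone lay between, at 1012 ± 149.6 CPM (SD, n = 5). The proteases C1ra and C1s1, which share a locus, were higher by 0.57 and 0.57, and Masp1 of the lectin pathway was lower, at -0.78. Of 13 tested complement genes 3 were higher and 1 lower. Ptgs2, the inducible cyclooxygenase, and Ptges, the prostaglandin E synthase that follows it, were higher by 0.66 ± 0.07 (adjusted p = 2.41e-07) and 0.68 ± 0.07 (adjusted p = 2.26e-07). Ptgis, the prostacyclin synthase, was higher by 0.30 and lost its call without 344SQ replicate 2 (adjusted p = 0.0551). These were 3 of 10 tested prostaglandin genes, with 0 lower. Over all genes tested, 2.52% were higher and 1.36% lower.

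Interferon-stimulated genes gave no calls, where 3.88% of all genes tested were called, so a list of 17 may hold none. Of 17 tested, 0 were called in either direction by edgeR and 0 by DESeq2, with 1 (Gbp2, at 0.71; named after its value was seen) at an unadjusted p under 0.05 in edgeR and a median of 0.08. The 2 of highest level were Ddx58, the viral RNA sensor, at 58.2 ± 4.78 against 57.2 ± 1.58 CPM (SD, n = 5; log2 difference 0.02, adjusted p = 0.946), and Ifi27, at 51.3 ± 6.20 against 48.7 ± 4.11 CPM (0.08, adjusted p = 0.847). Of 11 tested class I antigen presentation genes, 1 was higher, the non-classical H2-T22 (112 ± 10 against 52.1 ± 4.97 CPM; 1.11 ± 0.08, adjusted p = 3.23e-10), a gene with near-identical neighbours whose reads may be split.

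The hypoxia and glycolysis list had the most genes called among the lists examined. Of 27 tested genes, 15 were higher and 0 lower, where 2.52% and 1.36% of all genes tested were. In all, 24 were above 0 and the median log2 difference was 0.32. Bnip3 (ENSMUSG00000078566.8, chromosome 7, 138890836 to 138909519, minus strand), a mitophagy receptor induced in low oxygen, had 35.6, 36.5, 33.4, 26.8 and 40.0 CPM with 344SQ and 21.4, 16.2, 15, 16.7 and 18.9 CPM with 393P. CAFs alone had 8.17 ± 1.09 CPM, below all co-culture replicates of either line, and the difference between the lines was 0.96 ± 0.11 (adjusted p = 2.06e-06). Exons of Bnip3 overlap a gene on the other strand. Pgk1, a glycolytic kinase, had 141, 155, 137, 155 and 139.8 CPM against 110.3, 95.7, 105, 95.8 and 109.8 CPM, a smaller difference of 0.49 ± 0.06 (adjusted p = 6.40e-06), and CAFs alone were again lowest at 76.7 ± 3.75 CPM. Adm, the vasodilator adrenomedullin, was higher by 0.79 ± 0.08 (adjusted p = 1.86e-07).

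Further members called belong to steps from sugar entry to lactate export. RNA of the glucose transporter Slc2a1 was higher by 0.47, the hexokinases Hk2 and Hk1 by 0.52 and 0.39, phosphofructokinase Pfkl by 0.77, pyruvate kinase Pkm by 0.32, lactate dehydrogenase Ldha by 0.48, and the lactate exporter Slc16a3 by 0.96. Egln3, an oxygen sensor that is itself a target of hypoxia-inducible factor, was higher by 1.17, and Pdk1, which keeps pyruvate out of mitochondria, by 0.46. Eno1 (0.32), Tpi1 (0.31) and Ndrg1 (0.30) were called, but Eno1 not without 344SQ replicate 2 or 5 or 393P replicate 4 (adjusted p up to 0.0733). Tpi1 lost its call without 344SQ replicate 2 or 5, 393P replicate 1, 2, 3, 4 or 5 or CAFs alone replicate 4 (up to 0.130). Ndrg1 lost it without 344SQ replicate 1, 2, 3 or 5, 393P replicate 3, 4 or 5 or CAFs alone replicate 1, 4 or 5 (up to 0.158). In the 3 technical sets alone, 2, 5 and 6 genes were called, at medians of 0.36, 0.26 and 0.48. Without the deepest technical library, that of 393P replicate 1 with the high carcinoma markers, 19 were called. The hypoxia-response core, ACGTG or GCGTG on either strand, was in the promoters of 13 of 14 higher genes with an entry, but it is also in 68.4% of all tested genes and 43.8% of all promoters, and none of the 14 held a kappaB or AP-1 match.

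**Figure D4:**
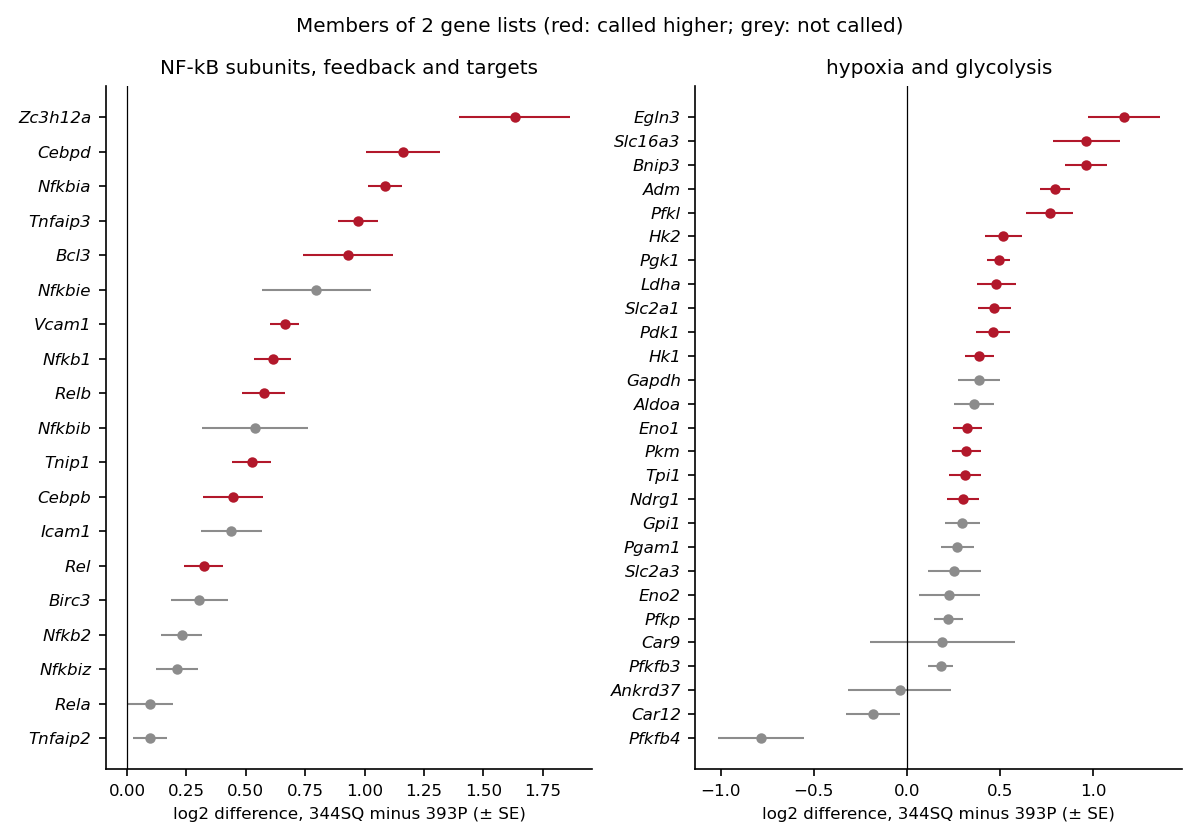
Log2 difference between CAFs with 344SQ and CAFs with 393P (horizontal axis) for each tested member of the NF-kB list (left) and the hypoxia and glycolysis list (right), 1 point per gene with its SE as a bar, red where called higher and grey where not called. All 19 NF-kB genes and 24 of 27 hypoxia and glycolysis genes lie to the right of 0.

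Matrix proteases differed by member. Mmp13 (ENSMUSG00000050578.9, chromosome 9, 7272514 to 7283331, plus strand), a collagenase, had 39.6, 44.3, 38.2, 44.4 and 42.1 CPM with 344SQ and 10.6, 13.4, 11.3, 8.64 and 9.53 CPM with 393P, a log2 difference of 1.97 ± 0.11 (adjusted p = 2.77e-12), and CAFs alone had 4.48 ± 0.754 CPM (SD, n = 5). Mmp3, a stromelysin, had 74.9, 59.3, 67.1, 76.7 and 97.5 CPM against 41.6, 34.4, 35.1, 43.8 and 41.7 CPM, 0.92 ± 0.11 (adjusted p = 3.17e-06), with CAFs alone at 12.3 ± 2.21 CPM. For both the order was CAFs alone, 393P, 344SQ. Mmp10 was higher by 1.31 and the inhibitor Timp1 by 0.45, whereas the inhibitors Timp3 and Timp2 were lower, at -0.28 and -0.21. The Timp1 difference was -0.016 in technical library 2 alone. In all, 4 of 13 tested Mmp and Timp genes were higher and 2 lower, where 2.52% and 1.36% of all genes tested were. Of 11 secreted Adamts proteases Adamts9 (0.92) and Adamts7 (1.40) were higher, both with exons that overlap another gene.

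Among structural matrix genes, 1 of 22 tested collagens was higher and 1 lower, where 3.88% of all genes tested were called, at a median of 0.07: Col3a1 at -0.29, which lost its call without 393P replicate 5 (adjusted p = 0.0612), and Col12a1 at 0.25, which lost it without 344SQ replicate 1, 3 or 5, 393P replicate 1, 3, 4 or 5 or CAFs alone replicate 3, 4 or 5 (adjusted p 0.0541 to 0.202). Col1a1 had 855 ± 75.3 CPM with 344SQ and 758 ± 18.5 CPM with 393P (SD, n = 5), with a log2 difference of 0.17 that did not pass (adjusted p = 0.114) but did without 344SQ replicate 4 (0.20, adjusted p = 0.0475). Collagen-modifying enzymes gave 2 higher of 21, the prolyl hydroxylase subunit P4ha2 (0.68 ± 0.08, adjusted p = 1.17e-06) and the lysyl hydroxylase Plod1 (0.52), and 1 lower, P4ha3 (-0.37), whose call was lost without 393P replicate 3 (adjusted p = 0.0516).

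Matricellular and elastic-fibre genes went both ways, 5 higher and 3 lower of 23, where 2.52% and 1.36% of all genes tested were. Tnc, the tenascin of wound and tumour matrix, had 204, 221, 174, 149.6 and 215 CPM with 344SQ and 102, 102, 116, 85.5 and 88.6 CPM with 393P, 0.97 ± 0.09 on the log2 scale (adjusted p = 5.18e-08). CAFs alone had 180.0 ± 9.70 CPM, so Tnc was near that level with 344SQ and below it with 393P. Nov (ENSMUSG00000037362.8, chromosome 15, 54745702 to 54754039, plus strand), a matricellular protein of the same family as Ctgf, had 24, 17.8, 21.8, 19.8 and 18.7 CPM with 344SQ and 44.8, 40.8, 42.5, 31.7 and 53.4 CPM with 393P, a log2 difference of -1.06 ± 0.12 (adjusted p = 7.13e-07), with CAFs alone highest at 100.1 ± 9.25 CPM. Ltbp2 (0.61) was higher, Fbln5 (-0.38) and Thbs2 (-0.30) were lower, and Ctgf (0.58) lost its call without 344SQ replicate 1, 393P replicate 4 or 393P replicate 5 (adjusted p 0.0565 to 0.0757). Among 16 proteoglycan and hyaluronan genes 3 were higher, led by Prelp (0.60), and 2 lower, Ogn (-0.59) and Fmod (-0.38). Of 11 basement membrane genes the laminin chains Lama4 (0.47) and Lamb1 (0.22) were higher, the latter not without 344SQ replicate 1, 2, 3 or 5 or 393P replicate 3, 4 or 5 (adjusted p 0.0569 to 0.124).

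Contractile genes are the mark of myofibroblastic CAFs. Of 16 tested, 0 were higher and 1 lower, where 3.88% of all genes tested were called, at a median of -0.02. Acta2, smooth muscle actin, had 2955, 3892, 2376, 2333 and 2710.2 CPM with 344SQ and 2624, 2443, 2839, 2494 and 2710.5 CPM with 393P, the 344SQ replicates spreading across the whole 393P range, and a log2 difference of 0.12 ± 0.10 (adjusted p = 0.612). The 1 call, Mylk at -0.38, was lost without 344SQ replicate 1, 2 or 4 or 393P replicate 1, 2 or 3 (adjusted p 0.0579 to 0.0999). Fhl2 (-0.29), the 1 of 15 serum response factor and YAP targets called, was lost without 344SQ replicate 1 or 2, 393P replicate 1, 4 or 5 or CAFs alone replicate 3 or 5 (0.0514 to 0.124). Of 22 TGF-beta genes 4 were higher and 1 lower, at a median of -0.0052. The co-receptor Tgfbr3 (0.34, adjusted p = 3.14e-04) kept its call with any replicate left out. The ligand Tgfb1 (0.38) lost its call without 344SQ replicate 1 or 393P replicate 5 (adjusted p 0.0738 and 0.0565).

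Secreted growth factors gave 6 higher and 3 lower of 26 tested, where 2.52% and 1.36% of all genes tested were. Ereg, a ligand of the epidermal growth factor receptor, had 123, 119, 145, 129 and 129 CPM with 344SQ and 74.3, 81.2, 71.2, 74.9 and 82.0 CPM with 393P (0.75 ± 0.07, adjusted p = 1.51e-07). Angptl4, a lipase inhibitor induced in low oxygen, had 33.7, 41.8, 33.6, 39.0 and 35.3 CPM against 19.1, 16.6, 18.0, 18.6 and 22.7 CPM (0.95 ± 0.10, adjusted p = 2.26e-07). Neither gene overlapped between the groups. Fgf7, a growth factor for epithelium, was higher by 0.53 (adjusted p = 1.04e-06), and the neuregulin Nrg1 was lower, at -0.42. Wnt, Notch and BMP genes gave 1 higher of 21, Nkd2 (0.96), and 3 lower, Hey2 (-0.95), Dkk2 (-0.87) and Dkk3 (-0.39). Nkd2 lost its call without 344SQ replicate 2, 4 or 5 or 393P replicate 3 (adjusted p up to 0.0870), and Hey2 without 344SQ replicate 1 or 393P replicate 4 (up to 0.0726). Dkk2 lost it without 344SQ replicate 1, 2, 4 or 5 or 393P replicate 1, 3, 4 or 5 (up to 0.0790), and Dkk3 without 344SQ replicate 1 or 5 or 393P replicate 1, 2, 3 or 5 (up to 0.115). Of 27 immediate-early genes Ier3 (0.62), Fosl2 (0.32) and Junb (0.68) were higher. Junb lost its call without 344SQ replicate 2 or 5 or 393P replicate 2 or 5 (adjusted p 0.0553 to 0.0746), stood at -0.079 in technical library 2 alone and shares exons with Prdx2 on the other strand.

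Calls in the growth and lipid lists were all lower, where 1.36% of all genes tested were. Of 35 cell-cycle genes 0 were higher and 3 lower (Mcm6, Cdca8 and Cenpa, -0.26 to -0.31), at a median of -0.14. Mcm6 lost its call without 344SQ replicate 1 or 393P replicate 1, 4 or 5 (adjusted p up to 0.0873), Cdca8 without 344SQ replicate 1 or 5 or 393P replicate 4 or 5 (up to 0.0800) and Cenpa without 344SQ replicate 1 or 3 or 393P replicate 1, 3, 4 or 5 (up to 0.113). Cholesterol and fatty acid synthesis gave 0 higher and 3 lower of 29, at a median of -0.16; of the 3, the desaturase Scd1 (-0.29 ± 0.06, adjusted p = 0.00202) kept its call with any replicate left out. Fdft1 (-0.29) lost it without 344SQ replicate 1 or 3 or 393P replicate 3 or 5 (adjusted p up to 0.101), and Scd2 (-0.21) without 344SQ replicate 1 or 3, 393P replicate 1, 3, 4 or 5 or CAFs alone replicate 3 (up to 0.128). The p53 targets gave 1 higher of 18, Plk2 (0.32), and the stress response 1 lower of 23, the serine synthesis enzyme Psat1 (-0.36, adjusted p = 0.00141). Both counts are near the 3.88% of all genes tested that were called. Among transcription factors of mesenchymal state, Snai2 was lower (-0.54 ± 0.10, adjusted p = 7.23e-04) and Zeb2 higher (0.32), while Zeb1 did not pass (0.14, adjusted p = 0.223). Zeb1 was called in technical library 2 alone (0.46, adjusted p = 0.0183) and by limma-voom on the technical libraries taken singly (0.20, adjusted p = 0.0484). That fit put the correlation of technical libraries of a replicate at -0.0132, so it counted them nearly as independent replicates, which they are not. Pdpn, a CAF surface glycoprotein, was higher by 0.33 (adjusted p = 0.00300).

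Beyond the lists, the largest rises took in genes of several kinds. Ch25h, which makes an oxysterol that curbs cholesterol synthesis, had 14.3, 20.7, 18.9, 16.3 and 19.4 CPM with 344SQ and 2.36, 2.71, 2.20, 2.58 and 2.74 CPM with 393P (2.82 ± 0.18, adjusted p = 4.68e-11). Its exons overlap a transcript on the other strand. Chil1, a chitinase-like glycoprotein of inflamed tissue, was higher by 2.79 ± 0.23 (12.9 ± 2.86 against 1.85 ± 0.561 CPM; SD, n = 5). Lgi2, a secreted leucine-rich protein, was higher by 2.61 ± 0.18 (11.3 ± 1.51 against 1.84 ± 0.231 CPM), and Fabp7, a fatty acid carrier, by 2.61 ± 0.35 (5.67 ± 2.16 against 0.901 ± 0.630 CPM). These 4 genes had 30 to 84 reads in all 393P sums together.

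The largest falls were smaller. Mgp (ENSMUSG00000030218.2, chromosome 6, 136872435 to 136875823, minus strand), the matrix Gla protein that inhibits calcification and binds BMPs, had 13.1, 17.5, 9.14, 13.9 and 14 CPM with 344SQ and 37.3, 31.2, 32.8, 28.8 and 36.7 CPM with 393P. Every 344SQ replicate was below every 393P replicate, the log2 difference was -1.29 ± 0.14 (adjusted p = 4.26e-07), and the mean of CAFs alone lay between at 22.1 ± 4.34 CPM (SD, n = 5). Abca8a (ENSMUSG00000041828.15, chromosome 11, 110025634 to 110095978, minus strand), a lipid transporter, had 1.14, 1.56, 2.28, 2.61 and 1.40 CPM against 5.84, 5.42, 4.25, 6.06 and 5.63 CPM (-1.60 ± 0.25, adjusted p = 1.10e-04), on only 44 reads with 344SQ. Spon2, a matrix protein that binds bacteria and integrins, had 18.5, 24.9, 18.5, 18.1 and 26.9 CPM against 40.9, 35.0, 34.6, 37.9 and 42.3 CPM (-0.84 ± 0.11, adjusted p = 1.06e-05). The others were the progesterone receptor Pgr (-1.04), the phosphatase subunit Ppp2r2b (-1.02), the cysteine dioxygenase Cdo1 (-0.96), Pradc1 (-0.94, exons overlapping Cct7) and the Wnt-cleaving protease Trabd2b (-0.81). Cdo1 lost its call without 344SQ replicate 1 or 393P replicate 1 (adjusted p 0.0624 and 0.0538). With a technical library taken alone, Cdo1 and Pradc1 were not called in library 1, 2 or 3. Spon2 and Ppp2r2b were not called in library 1 or 3, and Trabd2b and Abca8a not in library 2.

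Levels in CAFs alone place each line's side of the contrast. Both comparisons use the same 5 sums of CAFs alone, so they are given side by side and not set against each other. With 344SQ, 2087 genes differed from CAFs alone (14.9%; 1043 higher, 7.43%, and 1044 lower, 7.44%), and with 393P, 2195 did (15.6%; 1078 higher, 7.68%, and 1117 lower, 7.96%). Of the 8 tested acute-phase genes, 7 were higher and 0 lower with 344SQ, and 1 higher and 3 lower with 393P. Saa3 was at 5.32 with 344SQ and at -0.74 with 393P (adjusted p = 2.86e-04) on the log2 scale. All 3 neutrophil chemokines were higher with 344SQ, and with 393P 0 of the 3 differed in either direction. Cxcl2 and Cxcl5 among them passed the filter only through their reads with 344SQ. Of the NF-kB list, 13 were higher with 344SQ and 3 with 393P, with 0 lower in both.

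Of the hypoxia and glycolysis list, genes were higher with either line: 17 of 27 with 344SQ, at a median of 0.51, and 7 with 393P, at a median of 0.18, with 1 lower in each. Of the cell-cycle genes, some were higher than in CAFs alone with each line, 12 of 35 with 344SQ (median 0.17) and 23 with 393P (median 0.35), and the lines' own difference in this list is the small one given above. Cholesterol synthesis genes gave 5 and 12 of 29 higher. Of the contractile genes, 11 of 16 were lower with each line, and collagens gave 11 and 12 lower of 22. Acta2 stood at 4071 CPM in CAFs alone, against 2853 and 2622 CPM with 344SQ and 393P.

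The same lines were also compared in direct contact. Aggregates differ from the chamber in culture format and come from separate libraries, so an effect of contact cannot be told apart from these. There, 332 of 7992 tested genes differed between 344SQ and 393P (4.15%), 177 higher (2.21%) and 155 lower (1.94%) with 344SQ, from 3 libraries per group. Over the 7827 genes tested in both formats, the log2 differences had a Pearson r of 0.039 and a Spearman rho of 0.029 across genes, which share libraries and are not independent. Most differences were small, with a median size of 0.12 over the 14040 genes tested across the membrane. A low correlation over all genes therefore does not by itself show that the formats rank genes differently. Of 370 genes called across the membrane and tested in contact, 17.8% were also called in contact, and of 316 called in contact 20.9% were also called across the membrane. These shared genes divided into 34 with the same direction and 32 with the opposite one. In one model over both formats, the difference between the lines itself differed by format in 512 of 15193 genes (3.37%), 299 higher across the membrane (1.97%) and 213 lower (1.40%).

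**Figure D5:**
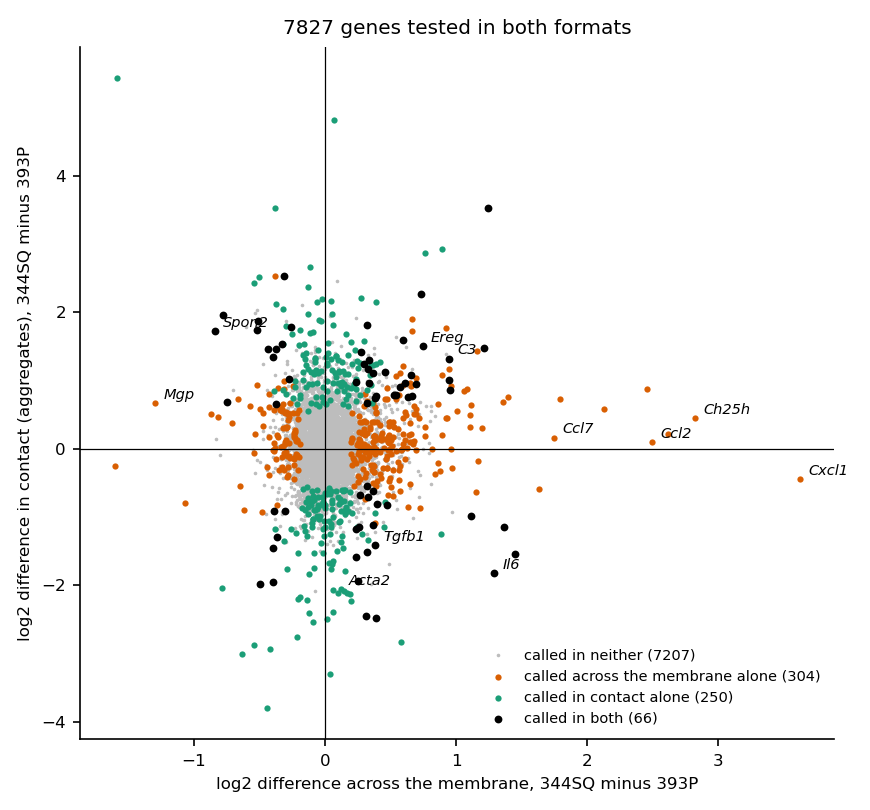
Log2 difference between 344SQ and 393P across the membrane (horizontal axis) and in contact aggregates (vertical axis), 1 point per gene tested in both formats, coloured by where it was called. The points show no common slope (Pearson r 0.039), and Il6 and Spon2 lie on opposite sides of 0 in the 2 formats.

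Il6 took opposite directions. In contact it had 9.04, 10.7 and 3.65 CPM with 344SQ and 35.7, 29.4 and 15.3 CPM with 393P, a log2 difference of -1.82 ± 0.43 (adjusted p = 0.00952), so that the formats differed by 3.18 ± 0.36 (adjusted p = 2.95e-08). Cxcl1 was -0.45 in contact, and its difference between formats was 4.15 ± 0.39 (adjusted p = 2.16e-10), a call that held without any 1 library. Mgp and Spon2, lower with 344SQ across the membrane, were at 0.67 and 1.73 in contact, and the formats differed by -1.93 (adjusted p = 1.88e-05) and -2.55 (adjusted p = 1.76e-08). C3 (0.95 across the membrane, 1.32 in contact), Ereg (0.75 and 1.5) and Ptgs2 (0.66 and 1.07) were higher with 344SQ in both formats. Tgfb1 was at 0.38 across the membrane and at -1.41 in contact, a difference of 1.83 (adjusted p = 2.93e-09).

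The largest differences between formats rested on few reads in contact. Saa3 had 0, 1 and 1 reads in the 344SQ aggregates and 3, 1 and 1 in the 393P aggregates, and Cxcl2 had 2, 0 and 0 against 3, 0 and 0, so neither could be compared between lines in contact at this depth. Their differences between formats, 7.19 and 6.48, lost their calls when 1 contact library was left out: Saa3 without 393P replicate 1 (adjusted p = 0.200), and Cxcl2 without 344SQ replicate 2 (adjusted p = 0.0598), 344SQ replicate 3 (0.0695) or 393P replicate 1, where its value was 0.99. In the other direction, Mmp10 had 5, 3 and 52 reads in the 344SQ aggregates and 0 in each 393P aggregate. Its difference of -8.60 lost its call without 344SQ replicate 3 (adjusted p = 0.176), 393P replicate 1 (0.0515) or 393P replicate 2 (0.0670).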

How the data were processed

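RNA was sequenced from sorted mouse tCAFs. The deposited tables hold raw counts of reads per gene, which the authors made with STAR and HTSeq on mm10, per the submitters' processing notes; versions, annotation and strand setting were not given in the sources used here. The 3 technical libraries of each biological replicate were summed, and the 15 Boyden sums (5 per group) were fitted together by group in edgeR 4.0.16 (R 4.3.3). filterByExpr (minimum count 10, minimum total 15), TMM scaling, the quasi-likelihood test and Benjamini-Hochberg adjustment over all genes tested gave 2-sided adjusted p-values, and a gene was called under 0.05. Levels are TMM-scaled CPM computed from the counts, and marker sums are scaled to the library total. The contact comparison was fitted on the 9 aggregate libraries, and the difference between formats on all 24. Depth, given in the report, limits precision for genes with few reads, and exact 95% intervals cover counting error only.

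The members and gene lists were chosen with earlier results of these data known. Genes named were the 10 largest rises and 10 largest falls among genes called without overlap and with at least 5 CPM in the higher group, up to 3 called members of lowest p per list (the 2 of highest level where none was called), Saa3, Il6, Acta2, Col1a1 and Zeb1, and the 5 largest differences between formats in each direction; further called list members are given by their values. Of the last, 1 is not reported here. Other genes are said to be named after their values were seen. Alternatives covered scaling, filter, tool (DESeq2 1.42.0; limma 3.58.1), samples, replicate block, depth, technical libraries and single replicates. The scripts were tested on simulated data with known changes.

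Gene positions are from GENCODE M21 on GRCm38, which matched 14008 of 14040 identifiers. Of the genes named, 26 have exons that overlap a gene on the opposite strand (Mt2, Vcam1, C1s1, Tnc, Ltbp2, Prelp, Mylk, Ereg, Cdca8, Fdft1, Zeb1 and Zeb2 besides those marked in the report), so their counts are uncertain where strand was not used. Motifs were searched in RefSeq promoters of GRCm38.p6.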

Additional observations from a re-analysis of the deposited data

Results flagged for a closer look

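Among 327 groups of 5 replicates examined, 15 (4.59%) had 1 value far from the other 4 by Dixon's criterion, and chance alone sets apart about 1 in 20 groups. With 344SQ, Vcam1 was low in replicate 5 (677 CPM against 729 to 749 CPM in the others) and Dkk2, a Wnt inhibitor, was high in replicate 3 (3.53 against 1.96 to 2.34 CPM). The summed fibroblast markers of 344SQ replicate 4 were low at 7033 CPM, against 7503 to 7663 CPM. With 393P, Cxcl2 was at 0.289 CPM in replicate 5 and 0 elsewhere, and Ltbp2 was high in replicate 3 (190.2 against 157 to 166 CPM). Dkk2 was low in 393P replicate 2 (3.98 against 4.57 to 4.73 CPM), Scd2 high in replicate 5 (596 against 526 to 542 CPM) and Spon1, a matrix protein, low in replicate 5 (57.6 against 81.7 to 89.6 CPM). In CAFs alone, replicate 5 stood apart for Steap4 (4.85 against 2.82 to 3.24 CPM), Mgp (29.7 against 19.2 to 21.2 CPM) and Cdca8 (40.2 against 47.2 to 49.2 CPM). Replicate 4 of that group did so for Ddx58 (97.8 against 58.4 to 64.7 CPM) and Angptl4 (22.2 against 17.7 to 18.3 CPM), replicate 3 for Mmp13 (3.18 against 4.60 to 5.11 CPM) and replicate 1 for Slc39a14 (44.8 against 53.7 to 56.0 CPM).

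The log2 difference between 344SQ and 393P differed between the membrane and contact for 21 of 31 genes compared, by the edgeR test of the difference itself, and 20 of them are given. It was larger across the membrane for Saa3 (7.19), Cxcl2 (6.48), Mcam (4.26), Cxcl1 (4.15), Il6 (3.18), Lgi2 (2.42), Ch25h (2.39), Acta2 (2.21), Col1a1 (1.11) and Zeb1 (0.79). It was smaller for Trabd2b (-1.22), Mgp (-1.93), Spon2 (-2.55), Il1rn (-3.34), Cdo1 (-4.21), Cyp26b1 (-4.79), Cx3cr1 (-7.66), Spon1 (-8.13), Tmem108 (-8.53) and Mmp10 (-8.60). Cx3cr1, Spon1, Tmem108 and Mmp10 had 0 reads in all 3 393P aggregates, so their values depend on the prior count and are no bounds. Besides Saa3, Cxcl2 and Mmp10, the calls of Mcam, Cx3cr1, Spon1 and Tmem108 were lost without single libraries. This held for Mcam without 393P contact replicate 2 (adjusted p = 0.187), for Tmem108 without 344SQ contact replicate 3 (0.0703), for Cx3cr1 without any 1 of 5 contact libraries (up to 0.136) and for Spon1 without any 1 contact library of either line or 393P membrane replicate 2 (up to 0.134), while Cxcl1 and Cyp26b1 kept theirs without any 1 library.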

How the results depend on the processing

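The count of genes called between the lines (545) stayed within 1.5 times under RLE scaling (539), upper-quartile scaling (554), the 2 lines alone (492), thinning to the smallest sum (456), DESeq2 (615), no filter (762), 393P replicate 1 without its second technical library (573), and 3 alternatives chosen after seeing the data: ribosomal-like and mitochondrial genes removed (552), 344SQ replicate 5 without its first technical library (520) and limma-voom with the technical library number as a term (545, of which 423 were also called here). The limma-voom fit put the correlation of technical libraries of a replicate at -0.0132, so it counted them nearly as independent replicates. Its adjusted p-values are therefore not those of 5 against 5. Without the filter the falls rose to 343. A minimum log2 difference of 1 left 78 genes (70 higher, 8 lower). A technical library taken alone has fewer reads and tests fewer genes: library 1 gave 71 calls (59 higher, 12 lower), library 2 gave 280 (185 and 95) and library 3 gave 152 (125 and 27). For 344SQ against CAFs alone these were 504 (285 and 219), 513 (297 and 216) and 739 (422 and 317), and for 393P against CAFs alone 619 (347 and 272), 199 (75 and 124) and 1132 (569 and 563). Of the calls between the lines, 69 of 71, 158 of 280 and 149 of 152 were also among the 545. The median 344SQ library held 1069240 reads in library 1, 1483546 in library 2 and 2352324 in library 3. The median 393P library held 1470633, 2424015 and 2334547 reads. Counts for 344SQ against CAFs alone rose in the order of the 344SQ medians. Counts between the lines followed the order of the 393P medians but not that of the 344SQ medians, and counts for 393P against CAFs alone followed neither. What sets the technical libraries apart was not tested. Leaving out single replicates gave 378 to 759 calls between the lines (250 to 392 higher, 113 to 367 lower; 367 without 344SQ replicate 4, 127 without 393P replicate 4). The ranges were 1581 to 2769 for 344SQ against CAFs alone (804 to 1352 higher, 777 to 1417 lower), 1579 to 2508 for 393P (724 to 1271, 841 to 1237), 369 to 502 for membrane against contact (211 to 290, 158 to 217) and 244 to 342 in contact (128 to 182, 111 to 164). The replicate block gave 426 calls (286 higher, 140 lower). Same-numbered 344SQ and 393P replicates correlated at -0.21 to 0.079 in their deviations and 0 of 5 matched their own number best. No pairing by number was seen, but 5 replicates per group cannot show that there was none. Directions reversed for Ddx58 without the filter (-0.0018) and without 344SQ replicate 3 (-0.025; range without single replicates -0.025 to 0.045). Technical library 1 reversed Ifi27 (-0.11), Fhl2 (0.13), Cenpa (0.082), Acta2 (-0.042), Mcam (0.044) and Spon1 (0.33). Library 2 reversed Timp1 (-0.016) and Junb (-0.079), and leaving out 344SQ replicate 2 reversed Ifi27 (-0.0078) and Acta2 (-0.024, in a range up to 0.18). The cause was not tested. Of 92 named genes called, 33 kept direction and call under all alternatives run. Of 141 called genes among the lists and the named genes, 109 kept their call without any single replicate. Depth limits Cxcl2 and Lcn2 most among the genes named, with 0 to 3 reads in each 393P sum.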

Other observations

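Several genes outside the lists, named here after their values were seen, also differed between the lines across the membrane. Ikbke, an IkB kinase relative, had 29.4 ± 4.49 CPM against 16.6 ± 2.59 CPM with 393P (SD, n = 5; log2 difference 0.82), and the death receptor Fas had 35.8 ± 4.65 against 18.8 ± 1.13 CPM (0.92). Ifnar2, a chain of the type I interferon receptor, had 67.8 ± 1.53 against 36.4 ± 2.37 CPM (0.90, adjusted p = 9.11e-09). Ikbke, Fas and Ifnar2 did not overlap between the groups. Map3k8, a kinase held by Nfkb1, was higher by 0.98, and its replicates overlapped.

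The arginine and lysine transporter Slc7a2 had 51.2 ± 6.80 against 22.2 ± 4.18 CPM (1.20, adjusted p = 1.65e-07). Serpinb2, an inhibitor of plasminogen activators, had 11.9 ± 3.63 against 2.6 ± 1.11 CPM (2.19), the glycoprotein hormone Stc1 had 17.2 ± 4.54 against 6.70 ± 1.68 CPM (1.37), and Olr1, a receptor for oxidised lipoprotein, had 16.4 ± 2.81 against 6.63 ± 1.02 CPM (1.29). The class I gene H2-T10, a close relative of H2-T22, had 28.5 ± 2.08 against 10.7 ± 0.975 CPM (1.41), and reads may be split between the pair. Each of these 5 genes had 344SQ replicates above every 393P replicate.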
